A study of Mus musculus with 2 samples.

Results

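The matrix metalloproteinases (MMPs), the ADAM and ADAMTS metalloproteinases and the tissue inhibitors of metalloproteinases (TIMPs) were followed in interscapular brown adipose tissue (iBAT), the thermogenic depot between the shoulder blades, of wild-type and Ucp1-knockout (Ucp1-KO) mice. The members were taken by their symbols: Mmp, Adam or Adamts followed by a number (with a closing letter allowed for Mmp and Adam), and Timp followed by 1 digit. The rule found 80 of the 27179 genes in the count tables, namely 23 MMP, 34 ADAM, 19 ADAMTS and 4 TIMP genes. The study holds 2 libraries, 1 from untreated wild-type Bl6N mice and 1 from untreated Ucp1 KO mice on the same Bl6N background, both from animals 20 days old. Each was made from the pooled tissue of 3 animals, so the spread between animals was not measured, no p-value can be given, and every difference below is one between these 2 libraries. The knockout is described as homozygous, and nothing in the labels limits it to a tissue or cell type.

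MMPs cut collagens and other matrix proteins outside the cell. They depend on a zinc ion in the active site and are made as inactive proenzymes. ADAMs sit in the membrane and release the outer parts of other membrane proteins, among them growth factor precursors, while ADAMTS enzymes are secreted and cut proteoglycans or procollagens. TIMPs bind these enzymes and block them, each with its own range of targets. In adipose tissue this system remodels the matrix around growing adipocytes and vessels.

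The libraries totalled 52950913 (wild-type) and 53216727 (Ucp1-KO) counts. Ucp1 itself had 366473 and 37853 counts, so reads of the targeted gene remained in the knockout pool. The brown adipocyte markers Adipoq, Plin1, Cidea, Pparg and Fabp4 all had at least 14490 counts in both libraries. All 5 were higher in Ucp1-KO beyond counting error, against 31.5% of all genes with enough counts to be examined. Their log2 ratios ran from 0.15 for Fabp4 to 0.84 for Adipoq, but with total-count scaling Fabp4 was at -0.15 and Pparg at -0.06. The animals are described as male, but Ddx3y, Uty, Kdm5d and Eif2s3y of the Y chromosome were all listed at 0 in wild-type and had 491 to 3446 counts in Ucp1-KO. Xist had 32380 and 16478 counts. Transcripts of skeletal muscle stood apart as well: the 10 markers summed to 278182 and 31970 counts, with log2 ratios from -3.92 to -2.00. The part of sex, of muscle tissue and of the share of adipocyte transcripts in the differences below was not tested, and with 1 library a genotype they cannot be told apart from the genotype.

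The MMP genes on chromosome 9 lie side by side, and their promoters are shown because these neighbours gave values in opposite directions. Each line holds the 100 bases before the start of transcription of a cluster gene with at least 1 count. The sequences are those of RefSeq (GRCm38.p6), placed in GRCm39 by an exact match and written on the plus strand. Capitals mark the AP-1 motif TGANTCA, a binding site of Fos and Jun proteins known from MMP promoters, and the TATA box letters TATAAA.
Mmp13 (chr9:7272414-7272513): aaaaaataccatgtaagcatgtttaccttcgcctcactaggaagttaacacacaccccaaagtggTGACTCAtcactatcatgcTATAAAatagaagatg
Mmp12 (chr9:7347274-7347373): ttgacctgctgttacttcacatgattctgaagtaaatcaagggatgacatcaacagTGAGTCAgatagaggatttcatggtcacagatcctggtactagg
Mmp3 (chr9:7445722-7445821): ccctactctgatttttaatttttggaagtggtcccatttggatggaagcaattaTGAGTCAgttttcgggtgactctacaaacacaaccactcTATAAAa
Mmp10 (chr9:7502243-7502342): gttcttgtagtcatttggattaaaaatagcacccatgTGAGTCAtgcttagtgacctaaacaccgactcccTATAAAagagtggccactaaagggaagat
Mmp8 (chr9:7558330-7558429): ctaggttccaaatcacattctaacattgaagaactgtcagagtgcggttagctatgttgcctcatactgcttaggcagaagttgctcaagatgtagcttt
Mmp27 (chr9:7571297-7571396): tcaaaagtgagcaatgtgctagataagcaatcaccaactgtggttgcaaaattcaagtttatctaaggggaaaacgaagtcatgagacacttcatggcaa

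Mmp12 has 2 starts in the RefSeq table. The sequence printed is that of the downstream start, taken because the window with more AP-1 matches was shown. The window of the upstream start held neither motif. The TATAAA letters of Mmp12 lay 5 bases after the downstream start and are therefore outside the printed stretch. The motifs were searched on the gene's strand in windows of 300 bases, 250 before and 50 after each start. The letters TGANTCA read the same on both strands, and TATAAA was not searched on the other. A gene was counted as holding a motif if any of its windows did. Of the 50 members with a window, 13 held the AP-1 letters (26.0%), against 8.97% of all 27025 genes with one. In the chromosome 9 cluster 8 of 10 genes held them, and 8 of 10 held TATAAA, while Mmp8 and Mmp27 held neither. Outside the cluster 5 of 40 members held the AP-1 letters. TATAAA was found in 9.77% of all genes with a window and in 22.0% of the members. These matches describe the letters in the windows, and binding was not measured.

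Of the 80 members, 60 had a count in at least 1 library and 46 had a mean normalised count of at least 10, the minimum for a gene to be examined. Normalised counts are counts divided by a size factor per library. The difference is given as the log2 ratio of Ucp1-KO over wild-type normalised counts after adding 0.5 to each, and its 95% counting interval covers counting error only. Pairs of counts are given with wild-type first and Ucp1-KO second. At this setting 5 of 46 members (10.9%) were at least 2-fold higher in Ucp1-KO, against 7.42% of all 15212 genes examined. At least 2-fold lower were 8 members (17.4%), against 9.55% of all genes. The counting interval left out no difference for 10 higher members (21.7%), against 31.5% of all genes, and for 26 lower members (56.5%), against 30.5%. The median log2 ratio of the 46 members was -0.41 and that of all genes examined -0.0016. Lower values were thus the more frequent ones: 32 of 46 members had a log2 ratio below 0, while 7620 of the 15212 genes did. The members' median mean normalised count was 392 and that of all genes examined 696. Counts from bulk tissue do not separate fewer cells of a type from less RNA per cell.

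The members closest to the 2-fold rule were Adamts4 (1.28) and Adamts10 (-1.09) on its outer side, and Mmp3 (0.98) and Timp4 (-0.88) on its inner side. In the plot of log2 ratios the members below 0 are spread over every subfamily.

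**Figure D1:**
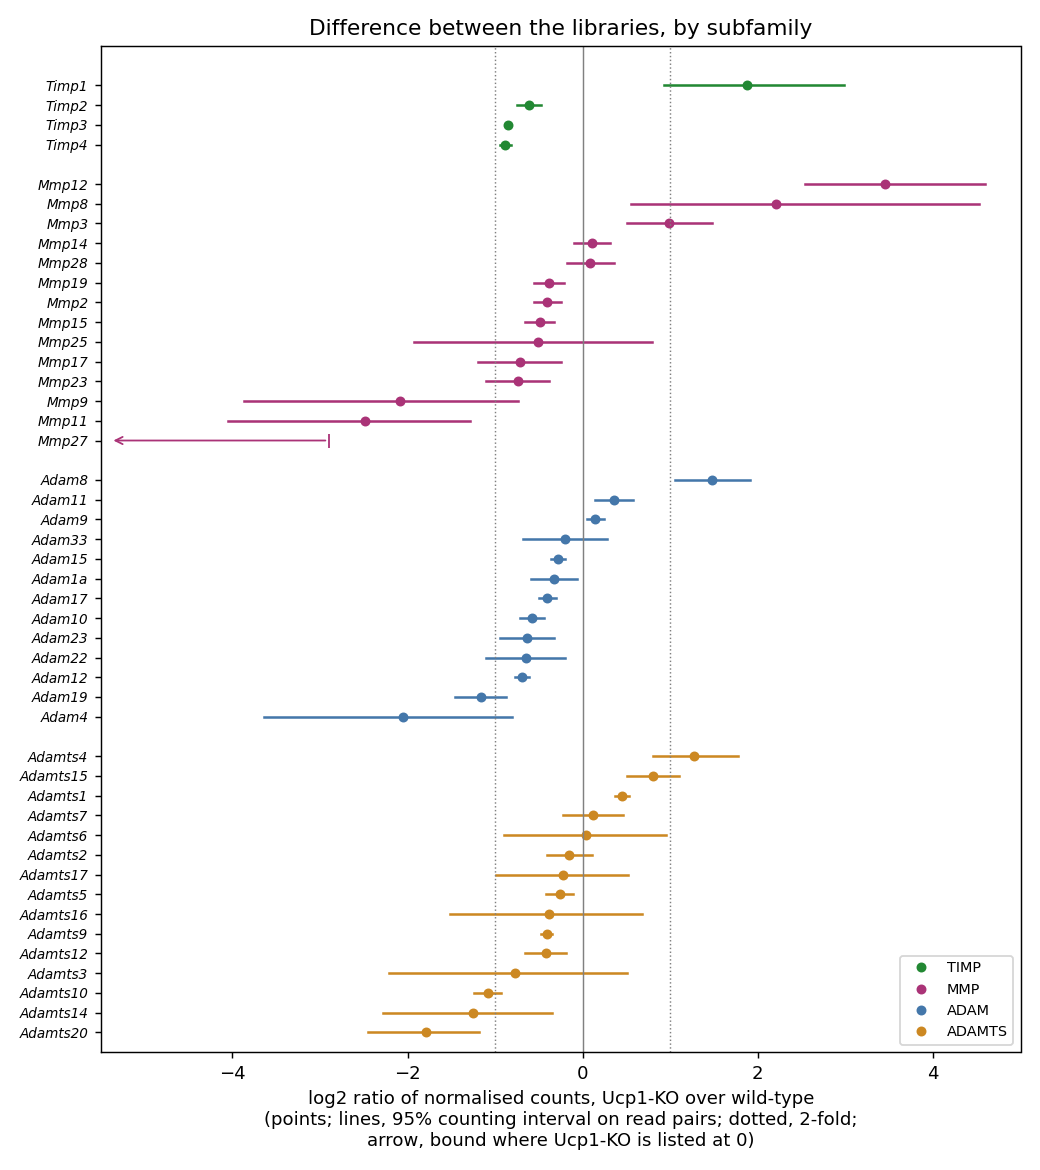
Log2 ratio of normalised counts, Ucp1-KO over wild-type (horizontal axis), for the 46 members examined, grouped as TIMP, MMP, ADAM and ADAMTS genes; lines are 95% counting intervals on read pairs, dotted lines mark a 2-fold difference, and the arrow for Mmp27 starts at its bound because it was listed at 0 in Ucp1-KO. Of the members, 32 lie below 0, and the points furthest to the right are Mmp12 (3.45), Mmp8 (2.21) and Timp1 (1.88).

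TIMPs made up most of the counts of the members in wild-type. The 3 abundant inhibitors Timp2, Timp3 and Timp4 were lower in Ucp1-KO, and the scarce Timp1 was higher. Timp3 (Entrez gene 21859; chromosome 10, 86136236 to 86185371, plus strand of GRCm39) encodes the inhibitor that stays bound to the matrix and also blocks ADAM17 and several ADAMTS enzymes. It had 50627 counts in wild-type against 22831 in Ucp1-KO, a log2 ratio of -0.85 (counting interval -0.88 to -0.82), or 1.80-fold lower. Per kilobase of transcript it had the highest level of all members in both libraries, with 9662 and 5363 normalised counts per kilobase. Timp4 (chromosome 6, 115187773 to 115229336, minus strand), an inhibitor that is abundant in adipose tissue and heart, had 13055 and 5749 counts (log2 ratio -0.88, interval -0.95 to -0.82). Timp2 (chromosome 11, 118191887 to 118246566, minus strand), which inhibits MMP2 but also takes part in its activation at the cell surface, had 2367 and 1259 counts (log2 ratio -0.61, interval -0.75 to -0.47). The intervals of Timp3 and Timp4 overlap, and that of Timp2 lies nearer to 0 than either. None of these 3 reached the 2-fold rule.

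Timp1 (chromosome X, 20736316 to 20740976, plus strand), the inhibitor that is induced by cytokines and growth factors, went the other way. It had 24 counts in wild-type against 73 in Ucp1-KO (log2 ratio 1.88, interval 0.93 to 2.98), or 3.68-fold higher. At 23.1 and 86.4 normalised counts per kilobase it remained far below the other TIMPs in both libraries. Timp1, Timp3 and Timp4 lie inside or across synapsin genes on the opposite strand, and the strand setting of the counting was not stated. Exons of Timp3 overlap those of Syn3 by 1734 bases and exons of Timp4 overlap those of Syn2 by 1142 bases, whereas those of Timp1 and Syn1 do not overlap. Timp2 shares 332 exon bases with Cep295nl on the same strand, which had 42 and 2 counts. Syn3 had 123 and 73 counts, few beside those of Timp3, and its part in the Timp3 value was not tested. Syn2 had 1567 and 785 counts (log2 ratio -0.70, interval -0.88 to -0.52), and its part in the Timp4 value was not tested.

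As a share of the counts of all 80 members, the TIMPs held 54.0% in wild-type (exact binomial interval 53.6% to 54.4%) and 44.1% in Ucp1-KO (43.6% to 44.6%). Timp3 alone held 41.3% (41.0% to 41.7%) and 33.7% (33.2% to 34.2%). Per kilobase, the summed TIMP level was 12357 in wild-type and 6962 in Ucp1-KO, and the summed level of the MMP, ADAM and ADAMTS genes was 10661 and 9004. The ratio of TIMP to protease transcripts was therefore 1.16 in wild-type and 0.773 in Ucp1-KO, and without Timp3 it was 0.253 and 0.178. These ratios are within a library and do not depend on the scaling between libraries. They compare transcripts, and neither protein nor activity was measured. The ADAM sum per kilobase was the highest of the protease subfamilies, as the plot of summed levels shows.

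**Figure D2:**
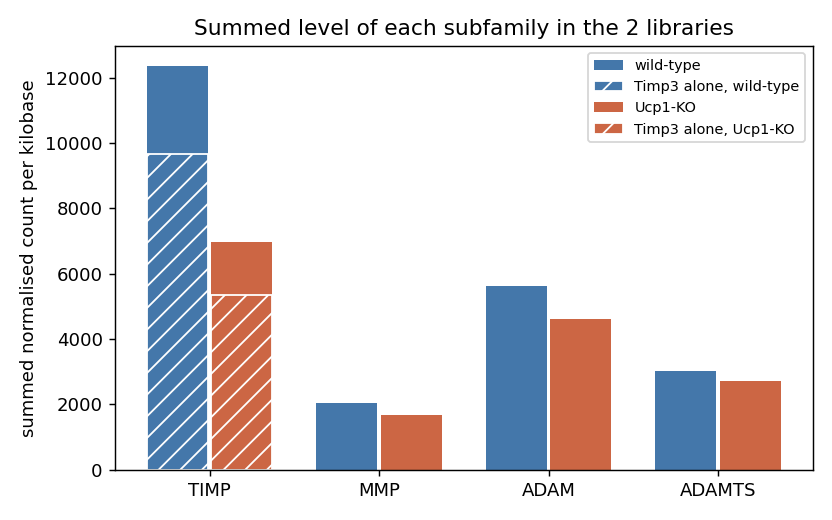
Summed normalised count per kilobase of transcript (vertical axis, from 0) of the TIMP, MMP, ADAM and ADAMTS genes in the wild-type (blue) and Ucp1-KO (orange) libraries, with the part due to Timp3 hatched. The TIMP bar is 12357 in wild-type and 6962 in Ucp1-KO, and the other bars differ less.

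Vascular and fibroblast transcripts are given beside the TIMPs. All 6 endothelial markers were lower in Ucp1-KO beyond counting error, with a median log2 ratio of -0.87 and values from -1.39 to -0.38, and so were all 5 mural markers, with a median of -0.76. Of 7 fibroblast and preadipocyte markers 6 were lower beyond counting error, but by less, with a median of -0.16. Over all genes examined 30.5% were lower beyond counting error. The part of these cells in the TIMP values was not tested.

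Among the MMPs the abundant genes differed little. The largest differences, in both directions, were in scarce genes, whose ratios carry the most counting error. Of the 14 MMPs examined, 2 lay above the 2-fold rule, 3 below it and 9 between, and their median log2 ratio was -0.45. Over all genes examined 7.42% lay above the rule and 9.55% below it. With a minimum mean of 50 these shares over all genes were 4.80% and 6.31%. The gelatinase gene Mmp2 (chromosome 8, 93553902 to 93580049, plus strand), which encodes an enzyme that cuts denatured collagen and basement membrane, had the highest MMP level per kilobase. It had 1840 counts in wild-type against 1129 in Ucp1-KO (log2 ratio -0.40, interval -0.56 to -0.25). Mmp14 (chromosome 14, 54668878 to 54682821, plus strand), the membrane-type enzyme that cuts collagen at the cell surface and activates MMP2, had 859 and 750 counts, and its log2 ratio of 0.10 (-0.10 to 0.31) was not beyond counting error and was -0.20 with total-count scaling. Mmp2 and Timp2 were thus lower while Mmp14, their partner on the membrane, was not detectably different.

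Of the other membrane-type genes, Mmp15 had 1658 and 959 counts (log2 ratio -0.49, interval -0.66 to -0.33). Mmp17 had 230 and 114 counts (-0.71, -1.20 to -0.24), and Mmp25, known from neutrophils, had 30 and 17 (-0.51, -1.93 to 0.79). No membrane-type gene examined passed the 2-fold rule. Mmp16 and Mmp24 were below the minimum, with 8 and 14 counts in wild-type against 0 in Ucp1-KO. A count of 0 allows up to 6 counts, or 3 read pairs, which is 0.113 CPM (counts scaled to the library total) in either library. The interval of Mmp24 lay below -0.23, and that of Mmp16 took in no difference. Mmp24 shares 698 exon bases with Mmp24os1 on the opposite strand, which had 379 and 274 counts. Mmp19 had 1497 and 932 counts (-0.38, -0.55 to -0.22) and Mmp23 had 400 and 194 (-0.74, -1.11 to -0.39), both lower beyond counting error, while Mmp28 had 507 and 438 (0.09, -0.18 to 0.36). Exons of Mmp19 overlap those of Tmem198b, on the opposite strand, by 1084 bases, and Tmem198b had 438 and 265 counts. Mmp28 exons overlap by 969 bases those of an opposite-strand gene with 405 and 413 counts. The part of that gene in the Mmp28 value was not tested.

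Lower values in scarce MMPs came from Mmp27, Mmp11 and Mmp9. Mmp9 (chromosome 2, 164780439 to 164797771, plus strand), the second gelatinase, which neutrophils and macrophages release, had 54 counts in wild-type against 10 in Ucp1-KO (log2 ratio -2.08, interval -3.87 to -0.74). Mmp11 (chromosome 10, 75759055 to 75772330, minus strand), stromelysin-3, is known from stromal cells around remodelling tissue. It had 85 and 12 counts (log2 ratio -2.48, interval -4.05 to -1.28), or 5.58-fold lower. Its exons overlap by 155 bases those of Chchd10 on the opposite strand, a mitochondrial gene with 15993 and 15157 counts, and its part in the Mmp11 value was not tested.

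The chromosome 9 cluster runs over 10 MMP genes from 7272514 to 7699587. Of these, only Mmp12, Mmp3, Mmp8 and Mmp27 reached the minimum to be examined. Among the cluster genes examined, the log2 ratio was above 0 beyond counting error for 3 and below it for 1. Over all genes examined these shares were 31.5% and 30.5%. With so few cluster genes examined, the split cannot be set apart from those shares. Mmp12 (Entrez gene 17381; 7344381 to 7369499, plus strand), macrophage elastase, had 20 counts in wild-type against 182 in Ucp1-KO (log2 ratio 3.45, interval 2.54 to 4.59), or 10.9-fold higher, the highest ratio among the 46 members examined. Mmp3 (7445822 to 7455975, plus strand), stromelysin-1, which cuts many matrix proteins and activates other MMPs, had 118 and 190 counts (log2 ratio 0.98, interval 0.50 to 1.48), just short of the 2-fold rule. Mmp8 (7558457 to 7568487, plus strand), the neutrophil collagenase, had 7 and 28 counts (log2 ratio 2.21, interval 0.55 to 4.52). The next gene, Mmp27 (7571397 to 7581891, plus strand), whose product is poorly characterised, had 55 counts in wild-type against 0 in Ucp1-KO, at least 7.45-fold lower against the limit of a 0 count, with an interval below -2.50. So the pair Mmp8 and Mmp27, whose printed promoters hold neither motif, differed in direction.

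The rest of the cluster was at or near 0. Mmp13, the interstitial collagenase, had 10 and 2 counts, too few for a direction (interval -7.59 to 1.14). Mmp10 had 0 and 2 counts. Mmp1a, Mmp1b, Mmp7 and Mmp20 were listed at 0 in both libraries. Mmp12 shares 157 exon bases with Mmp1b on the opposite strand, which had no count, and Mmp3 and Mmp10 are close relatives whose reads the counting could have split. Of the 3 cluster genes with a higher log2 ratio beyond counting error, Mmp3 and, at its downstream start only, Mmp12 hold the AP-1 letters. Mmp8 does not, while Mmp13 and Mmp10 hold them and had too few counts for a direction.

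**Figure D3:**
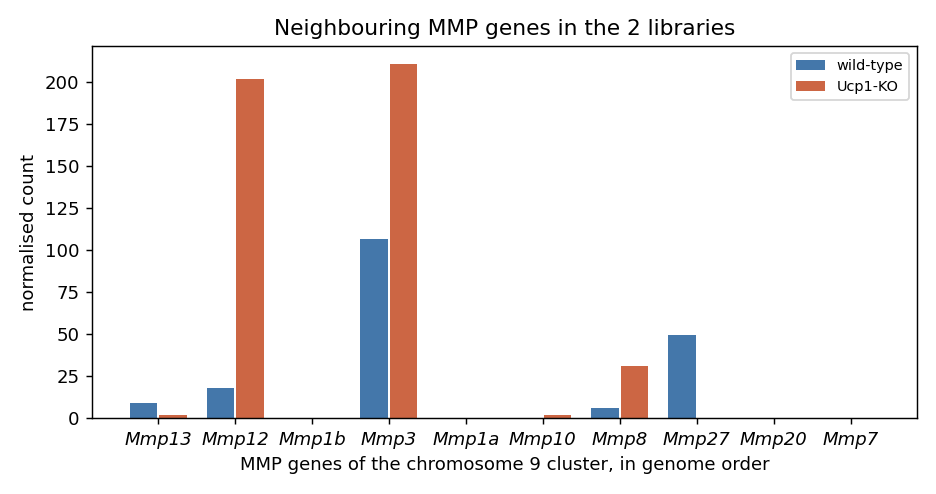
Normalised count (vertical axis, from 0) of the 10 MMP genes of the chromosome 9 cluster, drawn in genome order, in the wild-type (blue) and Ucp1-KO (orange) libraries; each bar is 1 library. Mmp12 and Mmp3 are the tall Ucp1-KO bars, at 202 and 211, Mmp27 has a bar in wild-type only, and 4 genes have none; the bars of different genes are not corrected for length.

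MMP12 is known from macrophages, and MMP8 and MMP9 from neutrophils, so the markers of these cells are given here. Of 8 macrophage markers, 3 were at least 2-fold higher in Ucp1-KO, against 7.42% of all genes examined. They were Itgam (96 and 323 counts), Trem2 (10 and 32) and Cd68 (233 and 403). With total-count scaling Cd68 was at 0.78, short of the rule. Csf1r, Adgre1, C1qa and C1qb did not differ beyond counting error, Mrc1 had a log2 ratio of 0.25 (-0.06 with total-count scaling), and the list had a median of 0.19 and a summed normalised count of 3034 in wild-type and 3772 in Ucp1-KO. Of 6 neutrophil markers, S100a9 (32 and 83 counts) and Csf3r (48 and 86) were at least 2-fold higher, S100a8 (42 and 30) and Elane (20 and 10) were not beyond counting error, Mpo had 0 and 12 counts, and Ly6g was listed at 0 in both. Csf3r was at 0.83 with total-count scaling, also short of it. The summed normalised count of the neutrophil list was 128 and 245. The part of these cells in the values was not tested.

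The ADAM genes fell into a broadly expressed set and a set known from testis. Of the 34 genes, 16 were listed at 0 in both libraries, 5 were below the minimum and 13 were examined, with a median log2 ratio of -0.41. At least 2-fold higher was 1 gene, Adam8, and at least 2-fold lower were 2, Adam19 and Adam4, against 7.42% and 9.55% of all genes. Per kilobase the highest were Adam15, Adam17, Adam9, Adam12 and Adam10.

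The sheddases ADAM10 and ADAM17 release membrane proteins such as Notch ligands and receptors, TNF and ligands of the EGF family. Adam10 (chromosome 9, 70586221 to 70687511, plus strand) had 2419 and 1316 counts (log2 ratio -0.58, interval -0.72 to -0.44). Adam17 (chromosome 12, 21373510 to 21423672, minus strand) had 4444 and 2726 counts (log2 ratio -0.41, interval -0.50 to -0.31). Both were lower by less than 2-fold. Adam15, which carries an integrin-binding motif and is known from endothelium, had 6518 and 4363 counts (-0.28, -0.36 to -0.20). Adam9 had 3422 and 3073 counts (log2 ratio 0.14, interval 0.04 to 0.24) that turned to -0.16 with total-count scaling.

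Adam12 and Adam19 are linked to fusing muscle precursors and to mesenchyme, and ADAM12 also to preadipocytes. Adam12 had 7091 and 3559 counts (log2 ratio -0.69, interval -0.78 to -0.61). Adam19 (chromosome 11, 45946775 to 46038172, plus strand) had 736 and 267 counts (log2 ratio -1.16, interval -1.46 to -0.87), or 2.24-fold lower. The skeletal muscle markers were all lower too, and their part in these values was not tested. Adam8 (chromosome 7, 139558845 to 139572475, minus strand), a protease of leukocytes and activated macrophages, had 135 counts in wild-type against 306 in Ucp1-KO (log2 ratio 1.48, interval 1.06 to 1.92), or 2.78-fold higher. Of the 8 proteolytic ADAMs examined, Adam8 and, except with total-count scaling, Adam9 were higher, and 5 were lower beyond counting error. Over all genes examined 31.5% were higher and 30.5% lower beyond counting error. Adam33 had 182 and 129 counts (-0.20, -0.68 to 0.28), and Adam28 was listed at 0 in both.

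ADAM11, ADAM22 and ADAM23 lack a working zinc site and act as adhesion or receptor proteins, mainly in nerve. Adam11 had 723 and 753 counts (log2 ratio 0.36, 0.15 to 0.57), and with total-count scaling its log2 ratio was 0.05. Adam22 had 245 and 127 (-0.65, -1.11 to -0.20) and Adam23 had 521 and 273 (-0.63, -0.94 to -0.33). Adam22 exons overlap 6137 bases of Sri on the opposite strand, a gene with 4084 and 2883 counts, so its value is uncertain.

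Of the 22 remaining ADAM genes, most of them known from testis and sperm, 15 were listed at 0 in both libraries and only Adam1a and Adam4 reached the minimum. Adam1a had 624 and 404 counts (-0.33, -0.59 to -0.07), while its close relative Adam1b had 3 and 0. Adam4 (chromosome 12, 81466217 to 81468720, minus strand) had 63 and 12 counts (log2 ratio -2.05, interval -3.64 to -0.81). It lies within an intron of Cox16 on the same strand, and Cox16 had 992 and 758 counts with a log2 ratio of -0.09 (-0.29 to 0.11). The germ cell markers Tnp1, Prm1 and Dazl had at most 2 counts in either library, Ddx4 had 28 and 20, and Sycp3 had 857 and 805.

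**Figure D4:**
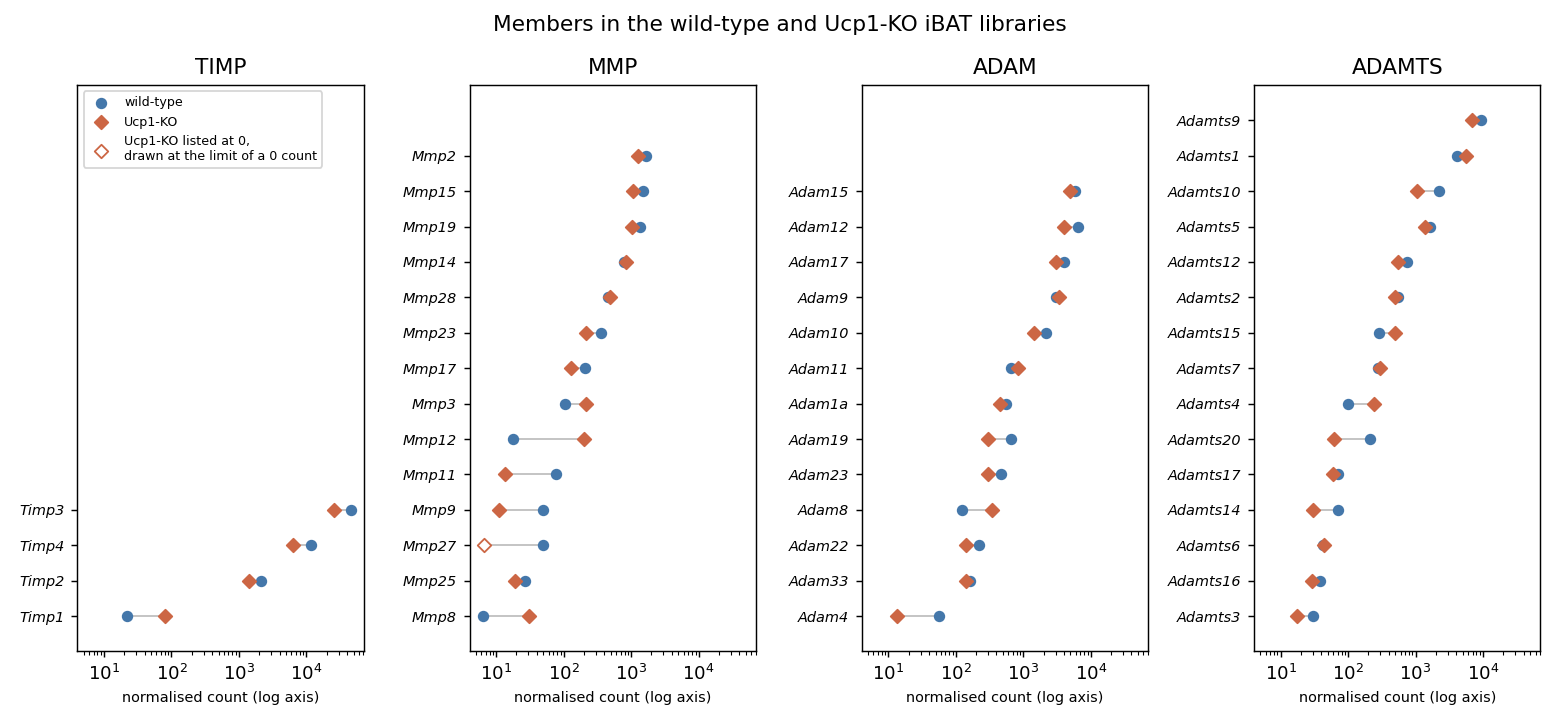
Normalised count (horizontal log axis) of the 46 members examined in the wild-type (blue circles) and Ucp1-KO (orange diamonds) libraries, in panels for TIMP, MMP, ADAM and ADAMTS genes; grey lines join the values of a gene and levels of different genes are not corrected for length. Timp3 has the rightmost pair, at 45633 and 25330, and the longest gap is that of Mmp12, from 18.0 to 202; Mmp27, listed at 0 in Ucp1-KO, is drawn as an open diamond at the limit of a 0 count.

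All 19 ADAMTS genes had counts, and 15 were examined, with a median log2 ratio of -0.26. The proteoglycanases, which cut versican and aggrecan, were split by sign. Beyond counting error 3 of 6 were higher and 3 of 6 lower, against 31.5% and 30.5% of all genes examined. With 6 genes this split cannot be set apart from those shares. Adamts4 (chromosome 1, 171077986 to 171089841, plus strand) had 111 and 219 counts (log2 ratio 1.28, interval 0.80 to 1.77), or 2.42-fold higher. With total-count scaling it was 0.97, short of the 2-fold rule. Adamts15 had 321 and 455 counts (0.80, 0.51 to 1.10). Adamts1 (chromosome 16, 85590579 to 85600009, minus strand), also known to restrain vessel growth, had 4527 and 5026 (0.45, 0.37 to 0.53). With total-count scaling Adamts15 was at 0.50 and Adamts1 at 0.14.

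In the other direction, Adamts9 (chromosome 6, 92749680 to 92920520, minus strand) had the highest ADAMTS level per kilobase over the libraries, with 10299 and 6292 counts and a log2 ratio of -0.41 (-0.48 to -0.35). In Ucp1-KO alone it came after Adamts1, at 866 against 1109 normalised counts per kilobase, whereas in wild-type it came first, at 1151 against 812. Adamts5, the neighbour of Adamts1 on chromosome 16, had 1834 and 1241 counts (-0.26, -0.41 to -0.12), so this neighbouring pair differed in sign. Adamts20 (chromosome 15, 94166170 to 94363299, minus strand), a close relative of Adamts9, had 235 and 55 counts (log2 ratio -1.79, interval -2.45 to -1.19), or 3.45-fold lower. Adamts8 was below the minimum, with 16 counts in wild-type against 0 in Ucp1-KO, at least 2.17-fold lower against the limit of a 0 count, with an interval below -0.47.

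The procollagen N-propeptidases trim fibrillar procollagens before they assemble. Adamts2 had 619 and 453 counts (-0.15, -0.40 to 0.10), Adamts3 had 34 and 16 (-0.77, -2.21 to 0.50) and Adamts14 had 80 and 27 (-1.25, -2.28 to -0.35). Adamts14 was thus lower by 2-fold, whereas the more abundant Adamts2 was not detectably different. Among the others, Adamts10 (chromosome 17, 33742987 to 33772758, plus strand), which binds fibrillin-1 in microfibrils, had 2457 and 940 counts (log2 ratio -1.09, interval -1.24 to -0.93), or 2.12-fold lower, the deepest counted of the members past the rule. Its relative Adamts6 had 48 and 40 counts (0.04, -0.90 to 0.95). Adamts12 had 826 and 500 counts (-0.42, -0.66 to -0.19), and Adamts7, Adamts16 and Adamts17 did not differ beyond counting error. Adamts13, the protease of von Willebrand factor, had 1 and 8 counts, with an interval of -0.72 to 13.5.

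Partner genes outside the symbol rule were taken from 4 lists of 64 genes, of which 50 were examined, with a median log2 ratio of -0.37. The 2-fold rule was passed upwards by 6 and downwards by 12, against 7.42% and 9.55% of all genes. In the list of activation and restraint, with a median of -0.07 over 16 genes, 4 were higher and 1 lower. Pcsk5, a proprotein convertase that cuts proenzymes, had 684 and 2897 counts (2.38, 2.21 to 2.56). Plaur, the urokinase receptor, had 143 and 313 counts (1.43, 1.02 to 1.85). Thbs1, a matrix protein that binds MMPs, had 964 and 2771 counts (1.82, 1.67 to 1.98). The lower one was Spock2 (300 and 118, -1.04), a matrix proteoglycan, and the most abundant, Bsg, an inducer of MMPs, had a log2 ratio of 0.21, which turned to -0.10 with total-count scaling. Furin, the convertase of membrane-type MMPs and ADAMs, had 5648 and 3441 counts (-0.42), and Reck, a membrane-bound MMP inhibitor, had 427 and 258 (-0.43); both were chosen after their values were seen.

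The list of ADAM10 and ADAM17 control had a median of -0.05 over 11 genes. The ADAM17 partners Rhbdf1, Rhbdf2 and Frmd8, also chosen after their values were seen, lay between -0.05 and 0.08, none beyond counting error, and the most abundant, Tspan14, was at 0.05. Lower beyond counting error but short of 2-fold were Tspan15 (-0.57), Sh3d19 (-0.53), Tspan5 (-0.40) and Pacs2 (-0.35). Only Tspan33 (62 and 102 counts, 1.01, but 0.71 with total-count scaling) and Sfrp1 (479 and 194 counts, lower) passed the 2-fold rule. The 6 shed EGF family ligands examined were all below 0, with a median of -1.20. Egf had 134 and 25 counts (-2.10), Hbegf 190 and 45 (-1.77) and Btc 510 and 152 (-1.44), while the most abundant, Nrg4, a factor that brown fat secretes, had 4665 and 3369 (-0.17, -0.26 to -0.08).

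Among ADAMTS substrates and relatives, 7 of 17 genes were at least 2-fold lower, against 9.55% of all genes, and 1 was higher, with a median of -0.50. The higher one was Vcan, the proteoglycan that ADAMTS1, ADAMTS4, ADAMTS5 and ADAMTS9 cut, with 253 and 414 counts (1.01, 0.68 to 1.34), but at 0.70 with total-count scaling it was short of the rule. The lower ones included the ADAMTS-like matrix genes Papln (1298 and 247, -2.09), Adamtsl3 (1042 and 265, -1.67) and Adamtsl4 (578 and 224, -1.07). Tll1, a procollagen C-propeptidase, had 88 and 16 counts (-2.13), and Vwf, an endothelial product, had 1989 and 780 (-1.05). Comp, a cartilage and tendon protein, had 22 and 2 counts (-2.90, -8.59 to -0.38), and Ncan, a brain proteoglycan, had 66 and 0, at least 8.94-fold lower against the limit of a 0 count. Fbn1, the fibrillin that ADAMTS10 binds and the most abundant by counts, had 3239 and 2513 counts and a log2 ratio of -0.07 (-0.17 to 0.04).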

How the data were processed

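Directional poly-A libraries of iBAT were sequenced. The authors deposited raw counts per gene, made with featureCounts; the submitters' processing notes name Trim Galore, HISAT2 and the mouse build mm39 (GRCm39). The annotation and the settings for strand and multi-mapping reads are not given in the sources used here. The members and lists were chosen with earlier results of these data known.

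Counts were scaled with median-of-ratios size factors (DESeq2 1.42.0, R 4.3.3), 1.11 for wild-type and 0.901 for Ucp1-KO. Among counts of 1 to 10, 70.7% (wild-type) and 73.4% (Ucp1-KO) were even, against 49.9% and 50.2% of those from 100 to 1000. Exact 95% intervals (conditional binomial for ratios, Clopper-Pearson for shares) therefore used read pairs (counts divided by 2), and a 0 allows 3 read pairs. Such intervals hold no error other than that of counting, and no molecular identifiers marked PCR copies. Genes without a symbol (1319) were kept. With 1 library per genotype nothing was tested. The script was tested on simulated data. Transcript lengths and positions are those of the canonical transcripts and genes in GENCODE mouse release M39, matched by symbol for all 80 members.

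Members were named where they passed the 2-fold rule beyond counting error, and further the TIMPs, the 5 highest members per kilobase of each protease subfamily, the gelatinases, collagenases, stromelysins, Mmp12 and membrane-type MMPs with a count, Adam10 and Adam17; other members complete their group. Partner genes were named where they passed the same rule or were the most abundant of a list. In the list of ADAM10 and ADAM17 control all genes beyond counting error were also named, after the values were seen. So were the shed EGF family ligands examined that were not beyond counting error. Some genes that the rule or an overlap would name are not reported here. The alternatives were TMM factors (edgeR 4.0.16), total counts with and without the 15 mitochondrially encoded genes, other minimum counts, another pseudocount, stricter size rules and intervals on the counts as deposited.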

Additional observations from a re-analysis of the deposited data

How the results depend on the processing

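No paired analysis was possible because the design has a single library per genotype. Leaving out a library would end the comparison and was not done. Total-count scaling shifted the median of all genes to -0.31. Under it 14 members were at least 2-fold lower (30.4%, against 15.2% of all genes), among them Timp3 and Timp4. Higher were 4 (8.70%, against 4.80%), and the members' median was -0.71. Its distance from the median of all genes was -0.40, as with size factors (-0.40). That holds by construction, because a change of scaling shifts the log2 ratio of every gene by nearly the same amount. Adam9 reversed to -0.16, and Mmp14, which was not beyond counting error, to -0.20. Without the mitochondrially encoded genes, at 22.4% (wild-type) and 36.7% (Ucp1-KO) of all counts, total counts gave 5 higher and 8 lower members, as did TMM factors and a pseudocount of 5. Without a minimum mean, 17 of 60 members were lower (28.3%, against 15.5% of all genes) and 7 higher (11.7%, against 11.9%). With a minimum mean of 50, 4 of 37 were lower (10.8%, against 6.31%) and 4 higher (10.8%, against 4.80%). At that minimum the lower members past 2-fold no longer outnumbered the higher ones, while 25 members lay below 0 and 12 above. A log2 ratio of at least 1.5 left 3 higher and 5 lower (3.96% and 5.23% of all genes), and an interval wholly beyond 2-fold left 2 higher, Mmp12 and Adam8, and 3 lower, Mmp27, Mmp11 and Adamts20 (2.72% and 3.72%); these rules remove genes by construction. Intervals on the counts as deposited put Mmp16 beyond counting error and changed the call of no other of the 37 named members. Of the alternative values for subfamilies and single members, 181 stayed within 0.1 or the counting interval, 21 moved further and 1, that of Adam9, reversed. The 181 include the 37 for intervals on the counts as deposited, where the log2 ratio cannot change. They also include values inside wide or open intervals: Mmp27 went from -6.65 to -3.45 with a pseudocount of 5. Depth limits Mmp8, Mmp9, Mmp13, Mmp25, Adamts3 and Adamts13, whose intervals are wide.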
